A study of Mus musculus with 6 samples.

Results

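The enzymes of the pentose phosphate pathway and the other enzymes that make NADPH were followed in CD4+ CD25+ T cells isolated from mouse spleen, a population that holds most regulatory T cells (Treg cells). The 9 genes described were Pgls and Pgd of the oxidative branch, Rpia, Rpe, Tkt and Taldo1 of the non-oxidative branch, and Me1, Me2 and Idh1. Members were found by gene symbol in the annotation of the array's transcript clusters, the units that each give 1 value per array. All 9 had a named cluster, among 30025 genes named on the array. The Tkt cluster is shared in the annotation with the microRNA gene Mir3076, and its values may come from either transcript.

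The Keap1_KO cells came from VAVcre/Keapfl/fl mice (labelled Keap1 -/-), in which Cre driven by Vav regulatory sequences deletes floxed Keap1 in blood-forming cells, and 3 arrays (B, C and D) measured them. The WT cells came from wild-type mice (labelled Keap1 +/+) and were measured on 3 arrays (A, D and F). The labels do not say whether the WT mice carried Cre or floxed alleles. All 6 samples were from untreated male C57BL/6 mice, and the labels give their age both as 10 to 12 months and as 6 to 10 weeks. The deletion covers all blood cells and not only Treg cells, and the cells were enriched with magnetic beads, so other blood cells can remain. The triplicates are called independent without a statement that each is 1 mouse, so a p-value here speaks only of the scatter among these 6 arrays, which may be partly technical.

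The pentose phosphate pathway branches off glycolysis at glucose 6-phosphate. Its oxidative branch reduces NADP+ to NADPH, the electron donor that keeps glutathione and thioredoxin reduced and feeds lipid synthesis, and its non-oxidative branch converts pentose sugars back into glycolytic intermediates or supplies ribose for nucleotides. KEAP1 marks the transcription factor NRF2 for degradation, and in mouse tissues and human cells NRF2 is known to raise transcription of PGD, TKT, TALDO1 and ME1. NRF2 binds the antioxidant response element with a small MAF partner.

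RefSeq promoter windows (GRCm38.p6, 250 bases before to 50 bases after a transcript start) were matched for 8 of the 9 members, 11 windows in all. They were searched on both strands for the letters TGACNNNGC, the core of the antioxidant response element. A match was found in 2 members, Pgd and Me1, each in 1 of its 2 windows. That is 2 of the 11 member windows, against 12.4% of all 32851 windows. The Me1 match reached from 6 bases before the start to base 3 after it, and the Pgd match lay at bases 4 to 12 after an alternative start. The stretches around these matches are shown because these windows hold the letters, with the match in capitals and each sequence written 5′ to 3′ along the gene's strand:
Me1, chr9:86695895-86695960, minus strand: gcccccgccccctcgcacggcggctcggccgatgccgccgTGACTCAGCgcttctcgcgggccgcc
Pgd, chr4:149166063-149166119, minus strand: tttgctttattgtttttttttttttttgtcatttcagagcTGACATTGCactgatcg

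The windows of Taldo1 and Tkt, the members with the largest differences between genotypes, held no match to TGACNNNGC. Their 250 bases before the start are shown with GC boxes (GGGCGG on either strand), which are bound by SP family factors, in capitals. GC boxes occurred in 35.7% of all windows, and the Tkt window held 5 of them over its whole length against 1 in the Taldo1 window. They were not particular to these 2 genes, since all 8 members with a window held at least 1. Me1 had 4 and Idh1 3 over their windows, Rpe 2, and Pgls, Pgd and Rpia 1 each. These matches describe letters in short windows and say nothing of elements elsewhere:
Taldo1, chr7:141391910-141392159, plus strand: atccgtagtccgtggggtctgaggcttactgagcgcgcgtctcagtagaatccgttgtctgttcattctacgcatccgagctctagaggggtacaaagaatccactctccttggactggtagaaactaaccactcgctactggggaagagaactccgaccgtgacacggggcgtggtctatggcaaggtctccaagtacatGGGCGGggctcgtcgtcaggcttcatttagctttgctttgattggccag
Tkt, chr14:30548881-30549130, plus strand: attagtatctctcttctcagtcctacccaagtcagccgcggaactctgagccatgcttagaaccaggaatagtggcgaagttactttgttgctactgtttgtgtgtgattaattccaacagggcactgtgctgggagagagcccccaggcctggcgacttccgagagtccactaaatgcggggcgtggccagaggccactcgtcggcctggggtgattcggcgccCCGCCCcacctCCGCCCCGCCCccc

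Values below are deposited log2 expression values, differences are Keap1_KO minus WT, and means are given ± SD over 3 arrays per genotype. Keap1 read 4.87, 4.89 and 4.70 on Keap1_KO B, C and D, against 5.30, 5.41 and 5.77 on WT A, D and F, so the labels and the targeted gene went together, although Keap1 was dim and probes outside the floxed part would not report its loss. The NRF2 target Nqo1 read 8.50, 7.55 and 9.14 on Keap1_KO B, C and D, against 4.68, 4.69 and 5.03 on WT A, D and F. The series title writes CD4- where the sample labels and protocols write CD4+. Cd4 read 12.09, 13.05 and 13.29 on the Keap1_KO arrays and 11.87, 12.30 and 11.16 on the WT arrays. Foxp3, the defining Treg gene, read 11.11, 12.41 and 12.08 on the Keap1_KO arrays and 10.76, 10.76 and 11.15 on the WT arrays, on a cluster shared with neighbouring transcripts, with Keap1_KO B below WT F. Correlations between arrays over all genes tested were 0.958 to 0.983 within a genotype and 0.927 to 0.988 between genotypes, so the genotypes did not separate the arrays.

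The 6 pentose phosphate members described here all had a higher mean in Keap1_KO cells, by 1.15-fold (Rpe) to 3.23-fold (Taldo1), whereas Me1, Me2 and Idh1 differed by no more than 0.17 on the log2 scale. In 4 of the 6, namely Pgls, Rpia, Tkt and Taldo1, each Keap1_KO array lay above each WT array. Over all 16826 genes tested, 9.11% had every Keap1_KO array above every WT array, 56.5% had a higher mean, and 4.96% had every Keap1_KO array below every WT array, which no member did. A difference of 1 or more on the log2 scale was seen in 3 of the 8 tested members (Pgls, Tkt and Taldo1), against 6.82% of all genes. None of the 8 members that passed the intensity filter (at or above the array's median on at least 3 arrays) passed limma at an adjusted p under 0.05, nor did any of the 16826 genes (0.0%). At an unadjusted p under 0.05, 3 members passed (Pgls, Tkt and Taldo1), all higher in Keap1_KO, against 10.3% of all genes in either direction and 8.39% in that direction. The 8 members were at or above the array's median on all 6 arrays, so none of them passed the filter through 1 genotype alone.

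**Figure D1:**
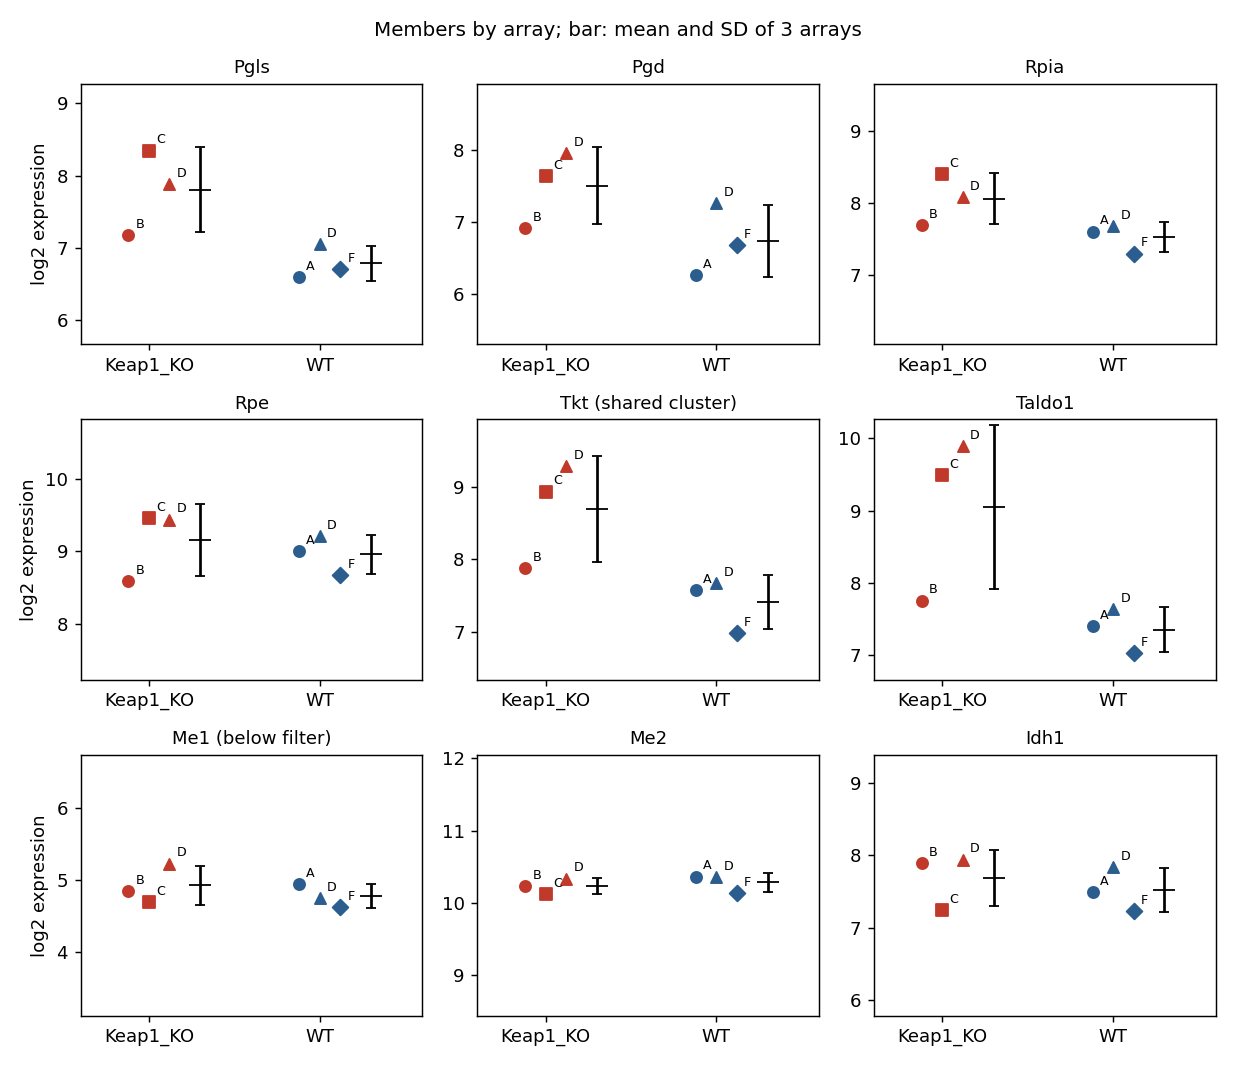
Log2 expression of the 9 measured members on each array, with Keap1_KO (red) left of WT (blue), letters naming the arrays and bars giving the mean and SD of 3 arrays; every panel spans the same number of log2 units. Keap1_KO B lay closest to the WT arrays in the panels of Pgls, Pgd, Rpia, Tkt and Taldo1, and the genotypes overlapped for Pgd, Rpe, Me1, Me2 and Idh1.

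Of the oxidative branch, Pgls encodes 6-phosphogluconolactonase, which opens the lactone ring of 6-phosphogluconolactone. Pgls read 7.18, 8.34 and 7.89 on Keap1_KO B, C and D, against 6.60, 7.05 and 6.70 on WT A, D and F. All Keap1_KO arrays were higher than all WT arrays, with a gap of 0.13 between Keap1_KO B and WT D. The difference was 1.02 (SE 0.32, 2.03-fold, 95% interval 1.19-fold to 3.47-fold), with an exact two-sided permutation p of 0.1, the smallest that 3 arrays against 3 allow, and a limma adjusted p of 0.476.

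Pgd encodes 6-phosphogluconate dehydrogenase, which makes NADPH and releases ribulose phosphate. It read 6.92, 7.64 and 7.96 on Keap1_KO B, C and D, against 6.27, 7.27 and 6.68 on WT A, D and F. The groups overlapped, since Keap1_KO B lay below WT D. The difference was 0.77 (SE 0.36, 1.70-fold), its 95% interval from -0.10 to 1.64 included 0, the exact permutation p was 0.2 and the limma adjusted p was 0.479.

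Of the non-oxidative branch, Taldo1 encodes transaldolase, which moves a three-carbon unit between sugar phosphates. Taldo1 read 7.75, 9.49 and 9.89 on Keap1_KO B, C and D, against 7.40, 7.63 and 7.03 on WT A, D and F. Keap1_KO C and D were far above the WT arrays, while Keap1_KO B exceeded WT D by 0.12. The difference of 1.69 (SE 0.55, 3.23-fold, 95% interval 1.28-fold to 8.16-fold) was the largest among the members, and 1.51% of all genes tested had a difference at least as high. The exact permutation p was 0.1 and the limma adjusted p 0.476.

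Tkt encodes transketolase, the thiamine-dependent partner of transaldolase. Its shared cluster read 7.88, 8.93 and 9.28 on Keap1_KO B, C and D, against 7.57, 7.67 and 6.98 on WT A, D and F. Again no array of one genotype overlapped the other, and Keap1_KO B was the lowest of its group. The difference was 1.29 (SE 0.40, 2.45-fold, 95% interval 1.25-fold to 4.77-fold), the exact permutation p 0.1 and the limma adjusted p 0.476, and 3.67% of all genes had a difference at least as high.

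Rpia and Rpe encode the isomerase and the epimerase that turn ribulose phosphate into ribose phosphate and xylulose phosphate, and they differed less. Rpia read 7.70, 8.40 and 8.08 on Keap1_KO B, C and D, against 7.61, 7.69 and 7.30 on WT A, D and F. The groups were separated by only 0.014, between Keap1_KO B and WT D, and the difference was 0.53 (SE 0.23, 1.44-fold, 95% interval -0.03 to 1.09, exact permutation p = 0.1, limma adjusted p = 0.476). Rpe read 8.59, 9.46 and 9.44 on Keap1_KO B, C and D, against 9.002, 9.21 and 8.67 on WT A, D and F. Keap1_KO B was the lowest of the 6 arrays for Rpe, and the difference of 0.20 (SE 0.29, 95% interval -0.51 to 0.91) did not exceed the spread (exact permutation p = 0.6, limma adjusted p = 0.758).

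The members outside the pathway, Idh1, Me2 and Me1, showed no difference beyond the spread. Idh1, the cytosolic NADP-dependent isocitrate dehydrogenase, read 7.89, 7.24 and 7.94 on Keap1_KO B, C and D, against 7.49, 7.83 and 7.22 on WT A, D and F. Keap1_KO C was near the lowest WT array, and the difference was 0.17 with a 95% interval from -0.46 to 0.81 (exact permutation p = 0.5, limma adjusted p = 0.771). Me2, the mitochondrial malic enzyme that prefers NAD, read 10.24, 10.12 and 10.34 on the Keap1_KO arrays and 10.37, 10.36 and 10.13 on the WT arrays. The groups overlapped, and the difference of -0.05 had a 95% interval from -0.44 to 0.33, 0.74-fold to 1.26-fold (exact permutation p = 0.5). Centring the arrays on their medians turned its sign (0.059).

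Me1, the cytosolic NADP-dependent malic enzyme, was dim, at or above its array's median on 1 array only. It read 4.85, 4.70 and 5.23 on Keap1_KO B, C and D, against 4.95, 4.75 and 4.62 on WT A, D and F, with the highest value on Keap1_KO D. In the fit without the intensity filter the difference was 0.15 (SE 0.18, 95% interval -0.28 to 0.58, exact permutation p = 0.6, limma adjusted p = 0.750).

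**Figure D2:**
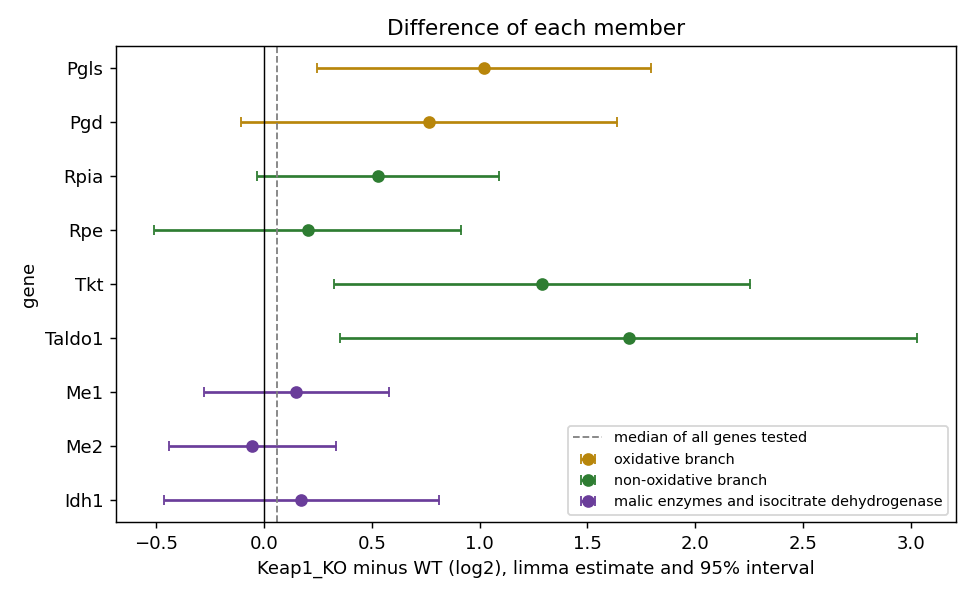
Difference Keap1_KO minus WT on the log2 scale for each member (points, limma estimates; bars, 95% intervals), coloured by branch, with the median of all genes tested (0.06) as a dashed line. The intervals of Pgls, Tkt and Taldo1 lie above 0 before adjustment for the number of genes, and those of the other members include 0.

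The branches were compared to see whether the oxidative and non-oxidative members differed between genotypes to the same extent. Of the 2 measured oxidative members only Pgd makes NADPH, and it differed by 0.77, against 1.02 for Pgls. The median difference was 0.89 over the 2 measured oxidative members and 0.91 over the 4 non-oxidative members, against 0.06 over all genes tested. For Me2 and Idh1, the tested members outside the pathway, it was 0.06. With the mean of the neutrophil markers described below as a covariate, the medians were 0.51 for the oxidative and 0.57 for the non-oxidative members. The mean deviation of the oxidative members from their own average over the arrays came to -0.16 on Keap1_KO B, 0.78 on Keap1_KO C and 0.71 on Keap1_KO D, against -0.77, -0.05 and -0.52 on WT A, D and F. The non-oxidative members gave -0.30, 0.79 and 0.90 on the Keap1_KO arrays and -0.38, -0.23 and -0.78 on the WT arrays. On both branches Keap1_KO C and D stood high and Keap1_KO B lay within the WT range.

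The oxidative minus the non-oxidative deviation was -0.02 ± 0.16 in Keap1_KO and 0.02 ± 0.36 in WT cells, a difference of -0.04 that is smaller than the spread between arrays. The non-oxidative branch was not uniform. Tkt and Taldo1 together, grouped after their values were seen, deviated by -0.31, 1.09 and 1.46 on Keap1_KO B, C and D, against -0.64, -0.48 and -1.12 on WT A, D and F. Rpia and Rpe together gave -0.28, 0.50 and 0.33 on the Keap1_KO arrays and -0.12, 0.02 and -0.44 on the WT arrays. The first pair differed by 1.49 between genotypes and the second by 0.37, an order that follows from how the pairs were chosen.

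The pathway members varied together over the 6 arrays, as a description of values that share arrays, genotype and normalization. Taldo1 correlated with Tkt (Pearson's r = 0.989), Pgls (0.929), Rpia (0.914), Pgd (0.887) and Rpe (0.802), whereas the values were 0.197 for Idh1 and -0.034 for Me2. Such values were common on these 6 arrays: 1568 of the 16825 other genes tested correlated with Taldo1 more closely than Pgls did. The reason was not tested. The 3 genes closest to Taldo1 were Cyth2, Mmadhc and Gaa, each with r = 0.999 over the 6 arrays. Mmadhc, a gene of vitamin B12 handling, read 7.87, 8.83 and 9.004 on Keap1_KO B, C and D, against 7.62, 7.78 and 7.41 on WT A, D and F.

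Keap1_KO B stood apart from the other Keap1_KO arrays. It exceeded the WT mean by 0.40 for Taldo1 and 0.47 for Tkt, whereas Keap1_KO C exceeded it by 2.14 and 1.53 and Keap1_KO D by 2.54 and 1.88. For Nqo1, Keap1_KO B exceeded the WT mean by 3.70, more than Keap1_KO C (2.75). Without Keap1_KO B the difference was 2.34 for Taldo1 (limma adjusted p = 0.0344) and 1.70 for Tkt (0.0455), so 2 members passed, while 3.39% of all genes did. Limma array weights gave Keap1_KO B the lowest weight (0.35) and WT A the highest (3.38), above WT D (0.76) and WT F (0.51). In that fit 4 members passed (Pgls, Pgd, Tkt and Taldo1, limma adjusted p from 0.0407 to 0.0482), against 11.2% of all genes. For Pgd the difference was 1.22 in that fit and 0.53 without WT A. Over the 14 alternatives the limma adjusted p ranged from 0.0344 to 0.9998 for Taldo1 and from 0.0407 to 0.9998 for Tkt.

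The mean of the neutrophil markers was highest on Keap1_KO D and C, though not every marker was high on Keap1_KO C. Of 15 neutrophil markers 14 were tested, and 13 had a higher mean in Keap1_KO, against 56.5% of all genes. Only 1, the myeloperoxidase gene Mpo (named after its values were seen), had every Keap1_KO array above every WT array, against 9.11% of all genes. The mean log2 value of the 14 markers came to 7.57, 9.24 and 11.25 on Keap1_KO B, C and D, against 7.45, 8.56 and 7.70 on WT A, D and F. The arrays with the most Taldo1 and Tkt were those with the highest marker mean. Of the 14 markers, 14 exceeded all WT arrays on Keap1_KO D, 9 on Keap1_KO C and 1 on Keap1_KO B. The 5 that did not on Keap1_KO C were Csf3r, Cxcr2, Ly6g, Retnlg and Mmp8, named after their values were seen. Among the 14 markers the difference ranged from -0.04 (Csf3r) to 2.68 (Ngp, a granule protein gene). Ngp, the marker with the largest difference, read 7.51, 11.04 and 13.56 on Keap1_KO B, C and D, against 7.72 to 8.18 on the WT arrays. With the marker mean as a covariate the difference was 0.90 for Taldo1, 0.76 for Tkt, 0.73 for Pgls and 0.29 for Pgd, and that of Rpe turned to -0.13. On Keap1_KO B the marker mean was below that of WT D and WT F and above that of WT A. The values on Keap1_KO B exceeded the highest WT array by 0.12 for Taldo1, 0.21 for Tkt, 0.13 for Pgls and 0.014 for Rpia. For the other pathway members Keap1_KO B lay below the highest WT array, with gaps of -0.35 for Pgd and -0.62 for Rpe. General T cell markers, Cd4 among them, were also high on Keap1_KO C and D (8 of 8 tested higher, median 0.95). They deviated by -0.32, 0.74 and 0.77 on Keap1_KO B, C and D, against -0.53, -0.02 and -0.64 on WT A, D and F. Treg markers (6 of 8 tested higher, median 0.62) deviated by -0.05, 0.84 and 0.71 on the Keap1_KO arrays and by -0.54, -0.30 and -0.64 on the WT arrays. Among these 8, Ikzf2 differed by -0.11, Il2ra by -0.05 and Ctla4 by 0.08. Lrrc32 differed by 0.61, Ikzf4 by 0.64, Tnfrsf4 by 2.01, Tnfrsf18 by 2.35 and Itgae by 2.40. CD8 T cell markers (3 of 3 higher, median 0.66) deviated by -0.56, 0.67 and 0.96 on the Keap1_KO arrays and by -0.38, 0.15 and -0.85 on the WT arrays. Over all genes tested, 56.5% had a higher mean and the median difference was 0.06. Keap1_KO D also gave the highest mean deviation for B cell (0.99), macrophage and monocyte (0.95), plasma cell (1.09) and NK cell markers (1.38). In the same order the deviations were -0.52, 0.26, 0.25 and -0.30 on Keap1_KO C. On WT D they were 0.67, 0.42, 0.22 and 0.54, so these lists did not all stand high on Keap1_KO C. Erythroid markers differed by a median of 0.01 over 5 tested genes. The part of any of these in the members' differences was not tested beyond that covariate. In such bulk samples more cells of a type and more RNA per cell cannot be told apart.

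**Figure D3:**
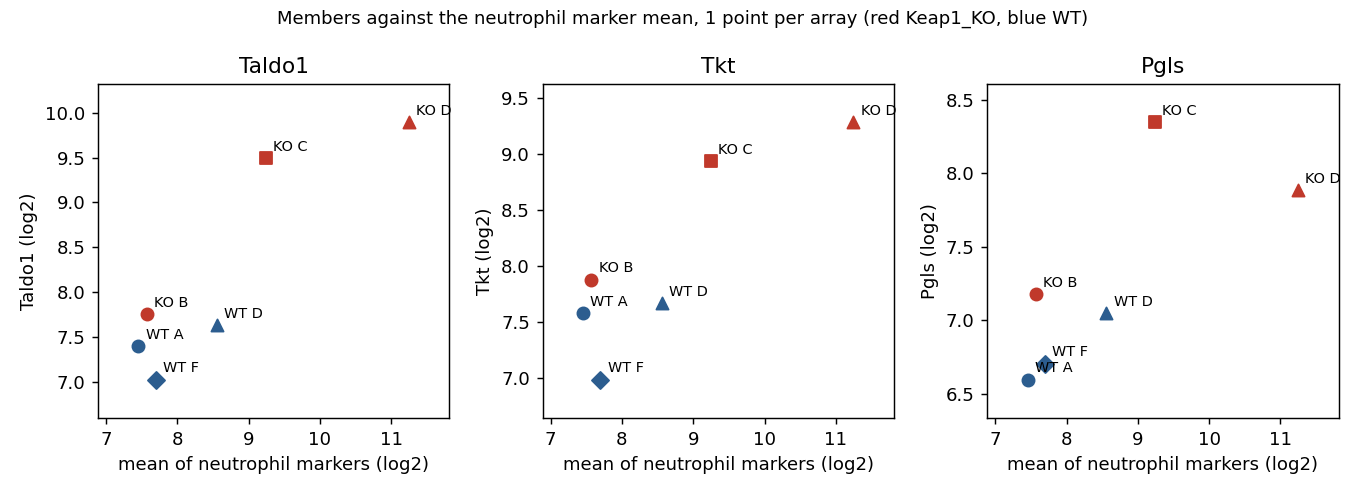
Taldo1, Tkt and Pgls (vertical axes, log2 expression) against the mean of the 14 tested neutrophil markers (horizontal axis, log2), 1 point per array. Keap1_KO D and C have the highest marker means (11.25 and 9.24) and the highest values of all 3 genes, and Keap1_KO B lies above the WT arrays at a marker mean of 7.57.

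Other genes that handle ribose and pentose phosphates differed in both directions. Of 13 listed, 11 were tested and 0 passed the adjusted threshold. At an unadjusted p under 0.05, 1 passed, against 10.3% of all genes. Means were higher for 8, against 56.5% of all genes, and lower for 3, and the median difference was 0.24. That median was -0.0081 with the neutrophil covariate, 0.39 without Keap1_KO B and 0.14 without Keap1_KO C. Dera, the deoxyribose phosphate aldolase, read 8.11, 8.27 and 8.29 on Keap1_KO B, C and D, against 7.74, 7.90 and 7.78 on WT A, D and F. All Keap1_KO arrays were higher, with a narrow spread in each genotype, and the difference was 0.42 (SE 0.15, limma adjusted p = 0.476). Prps1, which makes the ribose donor of nucleotide synthesis, differed by 0.50, and the subunits Prpsap1 and Prpsap2 that associate with it by 0.76 and 0.39, all with overlapping arrays. The transketolase-like genes Tktl1 and Tktl2 were below the filter.

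Of 10 other genes of NADPH and NADP supply, 6 were tested and none passed the adjusted threshold. Means were higher for 5, against 56.5% of all genes, and the median was 0.29. It was 0.081 without the intensity filter, 0.14 with the neutrophil covariate and 0.52 without Keap1_KO B. None of the 6 passed at an unadjusted p under 0.05, against 10.3% of all genes. Mthfd2, a mitochondrial folate enzyme, differed by 0.72, and Nadk, the cytosolic NAD kinase that makes NADP+, read 7.20, 8.04 and 8.22 on Keap1_KO B, C and D, against 6.92, 7.56 and 7.17 on WT A, D and F. Idh2, the mitochondrial NADP-dependent isocitrate dehydrogenase, differed by 0.34, and Nnt, the transhydrogenase of the inner mitochondrial membrane, by -0.41. The arrays of the genotypes overlapped for these 4 genes.

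Glycolytic enzymes that share intermediates with the pathway were measured for comparison. All 10 tested had a higher mean in Keap1_KO, against 56.5% of all genes, with a median of 0.36. In 4 of them every Keap1_KO array lay above every WT array, against 9.11% of all genes. None passed the adjusted threshold and 3 passed at an unadjusted p under 0.05, against 10.3% of all genes. Aldoa, the aldolase that splits fructose bisphosphate, differed by 1.40 (2.64-fold), and Gapdh, which uses the glyceraldehyde phosphate that transketolase and transaldolase also handle, by 0.91. Tpi1, triose phosphate isomerase, read 6.49, 8.09 and 8.14 on Keap1_KO B, C and D, against 6.31, 6.84 and 6.15 on WT A, D and F. Keap1_KO B again lay within the WT range. Aldoc differed by 0.45.

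Enzymes that spend NADPH had a median difference of 0.82 over 10 tested genes. Of these 9 were higher in Keap1_KO, against 56.5% of all genes. In 6 every Keap1_KO array lay above every WT array, against 9.11% of all genes. None passed at an adjusted p under 0.05, and 6 did at an unadjusted p under 0.05, against 10.3% of all genes. One of the 10 enzymes, Nqo1, passed the intensity filter through the Keap1_KO arrays alone. Without it 8 of 9 were higher, 5 had no overlap, 5 passed at an unadjusted p under 0.05 and the median was 0.80. With the neutrophil covariate the median over the 10 was 0.53. Txnrd1, thioredoxin reductase, read 9.22, 9.27 and 9.45 on Keap1_KO B, C and D, against 7.96, 8.34 and 7.68 on WT A, D and F. Txnrd1 was about as high on Keap1_KO B as on the other Keap1_KO arrays. Gsr, glutathione reductase, read 9.13, 9.18 and 9.80 on the Keap1_KO arrays and 8.13, 8.86 and 8.42 on the WT arrays, and no array overlapped. Cyba, a subunit of the phagocyte NADPH oxidase, read 8.79, 11.33 and 12.22 on Keap1_KO B, C and D, against 8.24, 8.79 and 8.16 on WT A, D and F. Cybb, the partner subunit of that oxidase (named after its values were seen), read 9.52, 9.16 and 11.22 on the Keap1_KO arrays and 10.01, 11.27 and 9.10 on the WT arrays. The arrays overlapped for Cybb, and its difference was -0.16.

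**Figure D4:**
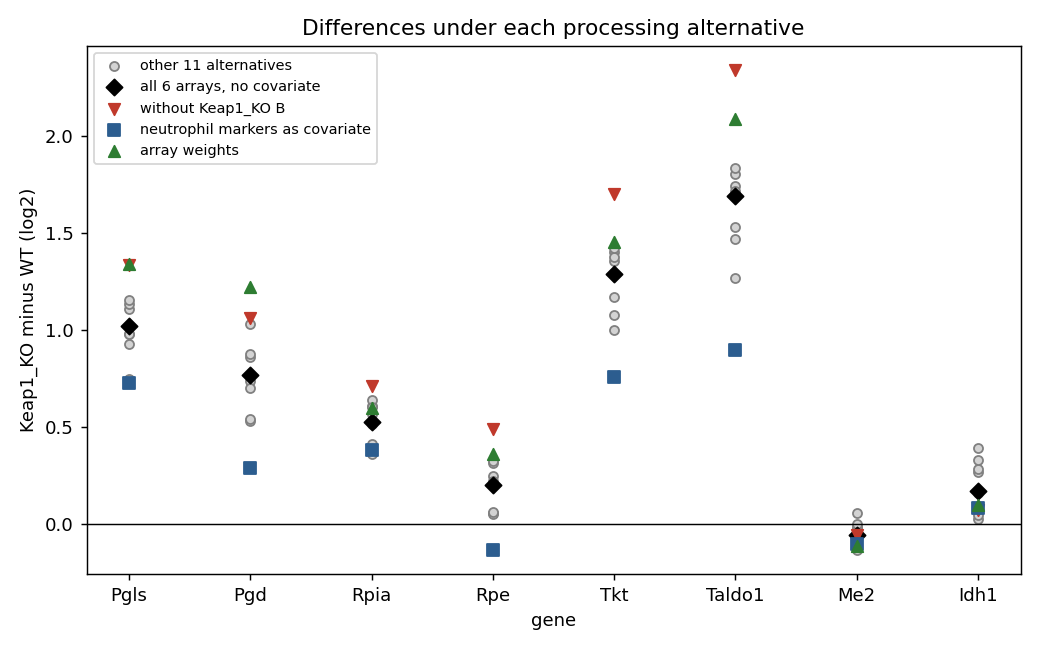
Difference Keap1_KO minus WT (vertical axis, log2) of the 8 tested members (horizontal axis) with all 6 arrays and no covariate (black) and under 14 alternatives. Leaving out Keap1_KO B gives the highest difference for Taldo1 (2.34) and Tkt (1.70), and the neutrophil covariate the lowest (0.90 and 0.76).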

How the data were processed

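Total RNA (40 ng per sample, per the labels' protocols) was amplified to biotin-labelled cDNA and hybridised to 1 array per sample. The deposited values are log2 expression values, and the submitters' processing notes name RMA, Affymetrix Expression Console and Transcriptome Analysis Console without versions. RMA subtracts background, applies quantile normalization and combines a cluster's probes. Values reached 19.93, above the limit of 16 of a 16-bit scanner, so a rescaling that no source states was applied, and folds are on the deposited scale. The build behind the annotation is not stated. The design text names another Affymetrix array type than the annotation that the identifiers match. For arrays, their number limits the precision.

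Of 65528 clusters, 30354 carried 1 symbol, updated through Entrez identifiers (824 replaced), 2118 several and 33056 none. Of shared clusters only that of Tkt was tested. A gene was tested when at or above its array's median (5.16 to 5.43) on at least 3 arrays, the brightest cluster standing for it, which left 16826 genes. Limma 3.58.1 (lmFit, eBayes) in R 4.3.3 compared Keap1_KO with WT, two-sided, with Benjamini-Hochberg adjustment over all of them, and was tested on simulated data. Lists were described by counts and medians. Named genes were all members, Keap1, Nfe2l2 and Nqo1, up to 4 genes of each other list with the largest absolute difference, and the 3 genes closest to the member with the largest difference. Nfe2l2 read 9.94 ± 0.81 in Keap1_KO and 8.93 ± 0.63 in WT cells. The members and lists were chosen with earlier results of these data known. One listed gene is not reported here. Alternatives changed the filter, scaling, weights, variance model, covariate, cluster choice and the arrays used.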

Additional observations from a re-analysis of the deposited data

How the results depend on the processing

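Over 14 alternatives the differences of Pgls, Pgd, Rpia, Tkt, Taldo1 and Idh1 stayed positive. The alternatives of filter, variance model and cluster choice returned the same differences for these members, so only the others could turn a sign. The count of members past the adjusted threshold was 0 with all arrays, 4 with array weights and 0 to 2 when 1 array was left out, the 2 being reached without Keap1_KO B. Over all genes, the count past the threshold was 0 with all arrays, 1886 with array weights, 570 without Keap1_KO B and 1 with an intensity trend and robust fitting. The sign turned for Rpe with the neutrophil covariate (-0.13) and for Me2 with centred arrays (0.059) and without Keap1_KO C (0.0024), and the cause was not tested. When 1 array was left out, the difference ranged from 1.27 to 2.34 for Taldo1, 0.998 to 1.70 for Tkt, 0.75 to 1.33 for Pgls, 0.53 to 1.06 for Pgd, 0.36 to 0.71 for Rpia and 0.054 to 0.49 for Rpe. The branch contrast (-0.04) ranged from -0.24 to 0.16. The median difference of all genes was 0.06, against 0.17 with centred arrays and 0.14 with quantile normalization repeated. Me1 was fitted only without the filter. No paired analysis was possible because the genotypes share only the letter D.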
